A study of Mus musculus with 4 samples.

Results

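The AP-1 family transcription factors described here were the 8 genes Fos, Fosb, Fosl2, Jun, Junb, Jund, Batf and Atf3. They were taken by name from the 31053 genes counted in each library, with no threshold on a measured value. The set was chosen with earlier results of these data known. Counts and ranks of members set beside all genes below are therefore descriptions and not tests. By the study's methods CD4 and CD8 T cells had been sorted by flow cytometry from meninges and choroid plexus. They came from young (10 weeks) and aged (18 months) mice and were sequenced with a 5′ single-cell gene expression kit. The study's methods give the mice as female C57BL/6 animals with no genetic change or agent named for these samples, and 5 mice were pooled into each group. The 4 groups were young meninges, aged meninges, young choroid plexus and aged choroid plexus, with 1 library each. A library with pooled mice gives no spread between animals, so no p-value was computed, and each interval below covers the counting of molecules or cells only.

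AP-1 is a dimer of basic leucine zipper (bZIP) proteins. Fos proteins do not pair with each other and bind DNA only with a partner, usually a Jun protein, whereas Jun proteins can also pair among themselves. Batf lacks a transactivation domain, pairs with Jun proteins and binds composite DNA elements together with Irf4 or Irf8, and Atf3 is a stress-induced member of the related Atf group. Fos, Fosb, Jun, Junb and Atf3 are immediate-early genes, transcribed within minutes of signals through the T cell receptor and the MAP kinases, and enzymatic digestion of tissue is also known to induce them. In T cells AP-1 works with NFAT at cytokine genes, and Batf is needed for several effector programmes.

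Cells with a unique molecular identifier (UMI) of Cd3d, Cd3e or Cd3g were kept as T cells, and numbered 1007 of 1111 barcodes in young meninges, 1408 of 1695 in aged meninges, 605 of 718 in young choroid plexus and 1094 of 1277 in aged choroid plexus. CD4 T cells had UMIs of Cd4 but not of Cd8a or Cd8b1, and numbered 254, 362, 160 and 230 in that order. CD8 T cells carried Cd8a or Cd8b1 UMIs and none of Cd4, and numbered 254, 281, 160 and 473. T cells with none of these 3 transcripts, called unclassified T cells below, numbered 481, 735, 269 and 358. Because CD4 and CD8 T cells had been sorted, this class is not read as a separate population. Cells with both Cd4 and Cd8 UMIs, 18, 30, 16 and 33 in that order, were left out of the classes. The median T cell held 3198, 2312.5, 2978 and 2838.5 UMIs, and any 2 libraries shared between 0 and 3 cell barcodes. Levels are CPM, a gene's UMIs scaled to a library and class total of 1000000, from the UMIs summed over a class in a library, with an exact Poisson 95% interval in parentheses. A difference was called past the rule of size where the higher library held at least 20 UMIs of the gene and the log2 ratio, taken after adding 10 CPM to both levels, was at least 1 in either direction. At low levels this ratio understates the change, and folds were taken on the levels themselves with an exact conditional binomial interval. In summed counts, fewer cells that transcribe a gene cannot be told apart from less RNA per cell. Lower RNA quality and the preparation of each library cannot be told apart from its tissue and age either.

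The promoters of 4 members are printed because the levels of Fos, Junb and Jun followed the tissue of origin together, whereas those of Batf did not in aged mice. The levels of Fosl2 also followed the tissue, and its promoter is not printed. Each sequence runs 5′ to 3′ from 250 bases before to 50 bases after the start that RefSeq gives on GRCm38.p6. Capitals mark the core of the cyclic AMP response element (TGACG), the related motif TGACNTCA and the letters of the TATA box (TATAAA). The windows were chr12:85473640-85473939 on the plus strand, chr8:84978699-84978998 on the minus strand, chr4:95052173-95052472 on the minus strand and chr12:85686470-85686769 on the plus strand.
Fos: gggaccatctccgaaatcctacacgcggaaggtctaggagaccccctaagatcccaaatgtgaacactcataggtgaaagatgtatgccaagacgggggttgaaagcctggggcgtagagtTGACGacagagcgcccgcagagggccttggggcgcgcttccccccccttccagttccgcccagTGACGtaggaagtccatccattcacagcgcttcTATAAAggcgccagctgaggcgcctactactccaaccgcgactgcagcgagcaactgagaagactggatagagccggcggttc
Junb: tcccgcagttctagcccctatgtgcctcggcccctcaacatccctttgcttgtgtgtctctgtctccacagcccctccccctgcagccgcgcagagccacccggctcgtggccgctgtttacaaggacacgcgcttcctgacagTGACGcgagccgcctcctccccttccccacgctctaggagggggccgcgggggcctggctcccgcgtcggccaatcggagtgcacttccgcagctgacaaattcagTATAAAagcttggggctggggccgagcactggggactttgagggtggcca
Jun: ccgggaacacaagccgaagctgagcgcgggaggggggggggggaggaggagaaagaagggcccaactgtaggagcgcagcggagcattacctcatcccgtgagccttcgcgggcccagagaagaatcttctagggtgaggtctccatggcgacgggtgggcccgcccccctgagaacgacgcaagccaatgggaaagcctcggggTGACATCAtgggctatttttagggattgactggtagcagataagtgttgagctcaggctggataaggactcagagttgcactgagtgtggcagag
Batf: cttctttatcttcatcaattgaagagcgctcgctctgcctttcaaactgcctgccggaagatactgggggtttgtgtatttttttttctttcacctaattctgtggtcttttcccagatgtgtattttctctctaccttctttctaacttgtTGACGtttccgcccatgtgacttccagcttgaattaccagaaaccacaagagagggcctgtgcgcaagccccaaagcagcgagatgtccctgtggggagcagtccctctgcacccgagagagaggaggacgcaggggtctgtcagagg

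All 8 members were matched in the RefSeq promoter table, and both strands were searched. TGACG was in the windows of 5 of the 8 members, Fos, Fosb, Junb, Batf and Atf3, and in 20.8% of the 32851 promoters of the table. TATAAA was in those of Fos and Junb and in 13.6% of all promoters. Its first base was at -33 from the RefSeq start in Fos but at 1, on that start, in Junb. The Junb match is therefore not read as a TATA box of that start. In the GENCODE annotation given below, Junb starts further downstream, at chr8:84978718 on the minus strand. The match lies upstream of that second start, and whether it serves it was not tested. TGACNTCA was in that of Jun only, as TGACATCA, and in 8.83% of all promoters. Every full element TGACGTCA also matches TGACNTCA and holds TGACG. No window of a member held TGANTCA, the AP-1 site itself, which was in 7.81% of all promoters. None held TGACGTCA, which was in 1.79%, or the serum response element, which was in 1.63%. Bases outside the windows were not searched, so a member can have any of these elements further upstream. The Jund window ended at chr8:70697788, before the start of Jund in the GENCODE annotation given below, and its lack of motifs is not read. The core TGACG was thus in the windows of Fos and Junb and also in that of Batf, while TATAAA was in the first pair only and the window of Jun held neither. The window of Fosl2, whose levels also followed the tissue, held none of the motifs searched. It began at chr5:32136222, past the start of Fosl2 in that annotation, so its lack of motifs is not read either. The Atf3 window (chr1:191183284-191183583) also lay inside its annotated gene, and its match is not read. Among Fos, Junb, Jun and Batf the matches did not follow the tissue pattern of the levels. The first 3 of these motifs were added to the search after the promoters had been seen. Matches are given as letters in a window, not as sites that a factor occupies. In the GENCODE vM21 annotation of GRCm38, Fos (chr12:85473890-85477273) and Batf (chr12:85686669-85709087) lie on the same chromosome, and Junb (chr8:84974484-84978718) and Jund (chr8:70698949-70700616) on another. Jun (chr4:95049034-95052222), Junb and Jund each have 1 exon, Batf has 3, and Fos, Fosb (chr7:19302696-19310051), Fosl2 (chr5:32135801-32157842) and Atf3 (chr1:191170296-191218039) have 4.

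The question of how AP-1 transcripts differed between the tissues was addressed within each age and class. Fos, Fosl2, Jun and Junb were lower in choroid plexus than in meningeal T cells, past the rule of size, in all 6 comparisons of the same age and class. Jund was lower past the rule in 2 of 6, Fosb in 3, Batf in 1 and Atf3 in 1, and no member was higher past the rule in choroid plexus. The share of all genes higher there is not given, so the lack of higher members is not read as particular to them. In young mice 5 of the 8 members were lower past the rule in CD4 T cells, against a background of 3.07% of all genes with at least 20 UMIs. The counts were 4 of 8 in young CD8 T cells (background 1.68%) and 4 of 8 in young unclassified T cells (1.62%). In aged mice they were 6 of 8 in CD4 T cells (1.95%), 5 of 8 in CD8 T cells (0.939%) and 7 of 8 in unclassified T cells (1.24%). Because the members were chosen with earlier results of these data known, these counts beside the background are a description. Members at low levels could not pass the minimum of 20 UMIs in every comparison. Between 6 and 8 members reached it, while the median log2 ratio of all 8 members lay between -1.82 and -1.04 and that of all genes at the minimum between -0.10 and 0.04.

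**Figure D1:**
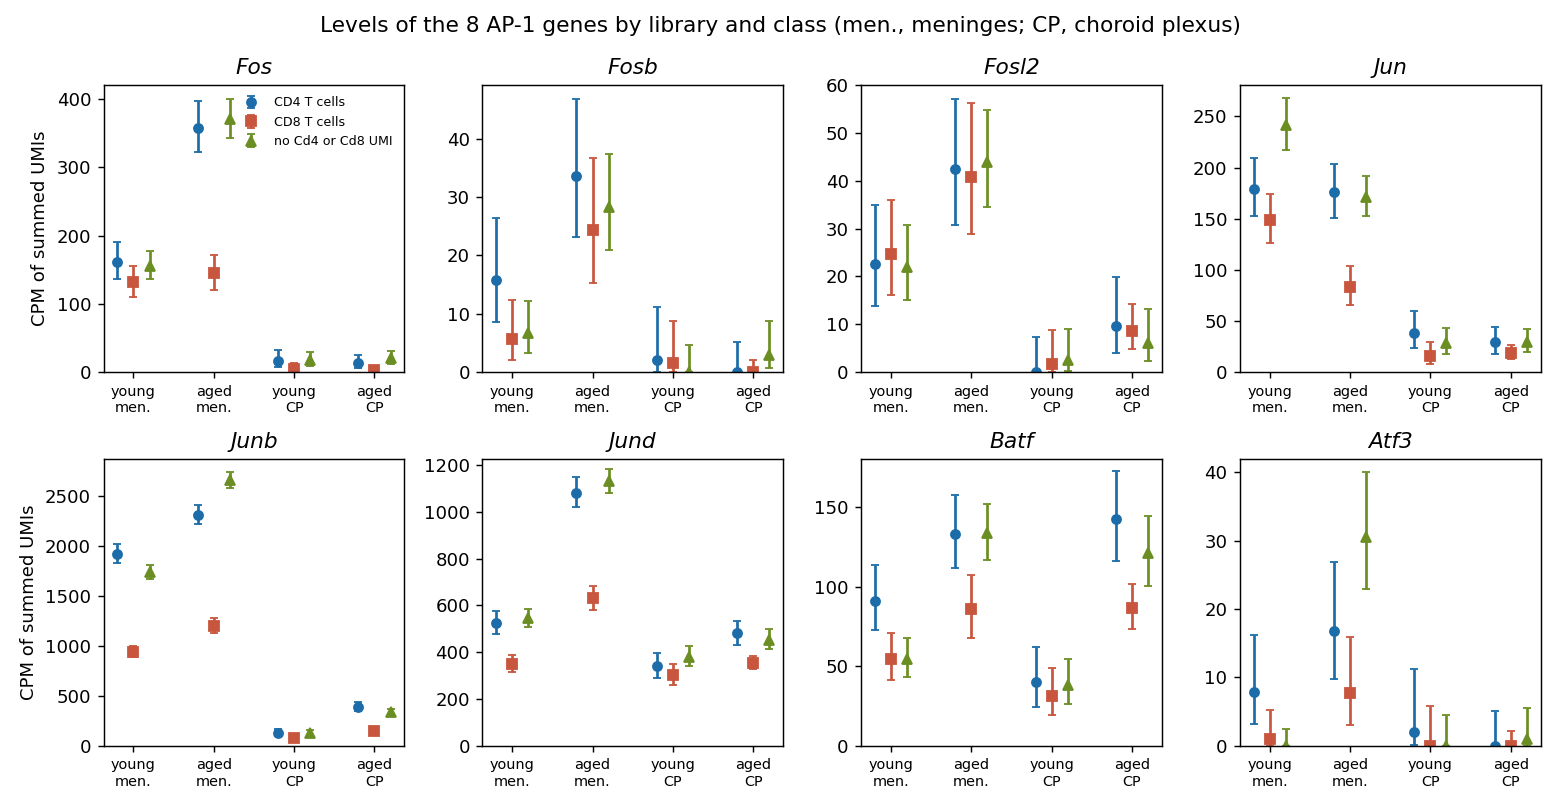
Levels of each member in CPM of summed UMIs (vertical axes, linear from 0, a scale of its own for each gene) by library (horizontal axes), with exact Poisson 95% intervals as bars and 1 point for each class. Fos, Fosb, Fosl2, Jun and Junb lie lower in both choroid plexus libraries than in both meningeal ones in every class, whereas Batf in aged choroid plexus lies at the level of aged meninges.

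Among the Fos genes, Fos itself, the immediate-early partner of Jun proteins, had a level in CD4 T cells of 161 CPM (136 to 190.1) in young meninges, 359 (323 to 397) in aged meninges, 16.1 (6.95 to 31.7) in young choroid plexus and 13.9 (6.64 to 25.5) in aged choroid plexus. In CD8 T cells its level was 132 CPM (111 to 155) in young meninges, 145 (121 to 172) in aged meninges, 4.73 (0.975 to 13.8) in young choroid plexus and 3.46 (1.27 to 7.52) in aged choroid plexus. Both meningeal libraries were far above both choroid plexus libraries, and their intervals did not overlap. In unclassified T cells the Fos level was 156 CPM (137 to 177) in young meninges, 371 (343 to 401) in aged meninges, 17.4 (9.49 to 29.1) in young choroid plexus and 20.04 (12.2 to 31.0) in aged choroid plexus. The young meningeal level of Fos was higher by 10.0-fold (4.95 to 23.7) in CD4, 27.8-fold (9.32 to 137) in CD8 and 8.99-fold (5.25 to 16.7) in unclassified T cells. In aged mice the meningeal level of Fos was higher by 25.9-fold (13.9 to 54.4), 41.9-fold (18.7 to 116) and 18.5-fold (11.9 to 30.5) in the same order. The log2 ratio of Fos between the tissues was the lowest of the 5702 genes compared in aged CD4 T cells, and it was among the 9 lowest genes in each of the other 5 comparisons.

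Fosb, a close relative of Fos with the same partners, was sparse, and its level ranged from 5.68 to 33.6 CPM in the 6 meningeal profiles. In choroid plexus Fosb had between 0 and 3 UMIs in each class and library. In aged mice it was at least 8.08-fold higher in meningeal CD4 T cells and at least 14.1-fold higher in meningeal CD8 T cells, where choroid plexus held 0 UMIs and the floor was set at 3 UMIs. The CD8 difference rested partly on 1 cell with 6 of the 22 meningeal UMIs, and without the cell with most Fosb UMIs the higher library fell under the minimum of 20. In aged unclassified T cells the meningeal level of Fosb was higher by 9.41-fold (3.04 to 47.2), on 49 and 3 UMIs. Fosl2, whose protein (Fra-2) lasts longer than Fos, had a level in CD4 T cells of 22.6 CPM (13.8 to 34.9) in young meninges, 42.5 (30.7 to 57.2) in aged meninges, 0 (0 to 7.43) in young choroid plexus and 9.70 (3.90 to 19.98) in aged choroid plexus. The meningeal level of Fosl2 in aged mice was higher by 4.38-fold (1.95 to 11.5) in CD4, 4.73-fold (2.53 to 9.28) in CD8 and 7.30-fold (3.201 to 20.5) in unclassified T cells. In young choroid plexus Fosl2 had 0, 1 and 2 UMIs in these classes, and the 20 UMIs of young meningeal CD4 T cells, 7 of them in 1 cell, gave a level at least 3.74-fold higher. Without the cell with most Fosl2 UMIs 13 UMIs were left in young meningeal CD4 T cells and the Fosl2 difference no longer met the minimum.

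Of the Jun genes, Jun, the founding member and partner of Fos, had a level in CD4 T cells of 179 CPM (153 to 209.6) in young meninges, 176 (151 to 204) in aged meninges, 38.2 (23.0 to 59.7) in young choroid plexus and 29.1 (18.01 to 44.5) in aged choroid plexus. In CD8 T cells the Jun level was 149 CPM (126 to 174) in young meninges, 82.9 (65.2 to 104) in aged meninges, 15.8 (7.56 to 29.0) in young choroid plexus and 18.4 (12.6 to 26.0) in aged choroid plexus. Its level was lower in both choroid plexus libraries, and no interval overlapped between the tissues. The meningeal level of Jun was higher by 9.42-fold (4.99 to 20.04) in young and 4.49-fold (2.93 to 7.03) in aged CD8 T cells. In unclassified T cells it was higher by 8.48-fold (5.56 to 13.5) in young and 5.90-fold (4.02 to 8.96) in aged mice. In young CD4 T cells the difference of Jun was 4.69-fold (2.91 to 7.997), and 9 of its 19 choroid plexus UMIs came from 1 cell.

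Junb, which restrains some targets of Jun and takes part in effector and regulatory T cell programmes, had a level in CD4 T cells of 1918 CPM (1828 to 2012) in young meninges, 2307 (2214 to 2403) in aged meninges, 129 (99.2 to 165) in young choroid plexus and 392 (348 to 440.4) in aged choroid plexus. In CD8 T cells the Junb level was 940.4 CPM (883 to 1001) in young meninges, 1199 (1128 to 1272) in aged meninges, 75.6 (55.8 to 100.3) in young choroid plexus and 152 (134 to 172) in aged choroid plexus. In unclassified T cells it was 1733 CPM (1668 to 1801) in young meninges, 2656 (2580.2 to 2734) in aged meninges, 129 (105 to 156) in young choroid plexus and 334 (299 to 372) in aged choroid plexus. The order young choroid plexus, aged choroid plexus, young meninges, aged meninges was the same in all 3 classes, and no neighbours in it had overlapping intervals. In young mice the meningeal level of Junb was higher by 14.9-fold (11.6 to 19.4) in CD4, 12.4-fold (9.30 to 17.0) in CD8 and 13.4-fold (11.1 to 16.5) in unclassified T cells. In aged mice it was higher by 5.89-fold (5.20 to 6.68), 7.88-fold (6.88 to 9.05) and 7.96-fold (7.12 to 8.92), so that the tissues lay closer together in aged than in young mice in each class. Junb was among the 10 genes with the lowest log2 ratio in every tissue comparison and had the lowest of all 5184 genes compared in young CD8 T cells.

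Jund, the Jun gene that is expressed steadily in resting cells, differed less between the tissues. Its level in CD4 T cells was 526 CPM (479 to 576) in young meninges, 1082 (1019 to 1148) in aged meninges, 340.2 (291 to 396) in young choroid plexus and 481 (431 to 534) in aged choroid plexus. In CD8 T cells the Jund level was 349 CPM (314 to 387) in young meninges, 629.7 (579 to 684) in aged meninges, 303 (261 to 349) in young choroid plexus and 355 (327 to 384) in aged choroid plexus. The level in aged meninges was the highest in all 3 classes, and in young CD8 T cells the intervals of the tissues overlapped. The meningeal level of Jund was higher by 2.25-fold (1.99 to 2.55) in aged CD4 and 2.49-fold (2.25 to 2.76) in aged unclassified T cells, the only tissue comparisons of Jund past the rule, and by 1.15-fold (0.966 to 1.38) in young CD8 T cells.

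Batf did not follow the tissue in aged mice. Its level in CD4 T cells was 91.4 CPM (72.6 to 114) in young meninges, 133 (112 to 158) in aged meninges, 40.3 (24.6 to 62.2) in young choroid plexus and 143 (116 to 173) in aged choroid plexus. In CD8 T cells the Batf level was 54.9 CPM (41.7 to 70.9) in young meninges, 86.2 (68.1 to 108) in aged meninges, 31.5 (19.3 to 48.7) in young choroid plexus and 87.0 (73.7 to 102) in aged choroid plexus. In unclassified T cells it was 54.4 CPM (43.3 to 67.6) in young meninges, 134 (117 to 152) in aged meninges, 38.4 (26.1 to 54.5) in young choroid plexus and 121 (101 to 145) in aged choroid plexus. The aged libraries of both tissues had overlapping intervals in every class, and the log2 ratio of choroid plexus over meninges was 0.09, 0.01 and -0.13 for Batf in aged CD4, CD8 and unclassified T cells. The meningeal over choroid plexus fold of Batf in aged CD8 T cells was 0.990, with an interval from 0.744 to 1.31, but thinning every cell to 1000 UMIs before summing gave a log2 ratio of -0.50. In young mice the log2 ratio of Batf was -0.64 in CD8 and -0.41 in unclassified T cells, and in both the level intervals of the tissues overlapped. Over the 6 tissue comparisons its fold interval excluded 1 in only 2. Past the rule Batf was lower in choroid plexus only in young CD4 T cells, at a log2 ratio of -1.01. There 1 meningeal cell held 23 of 81 UMIs, and without the cell with most Batf UMIs of each library the ratio was -0.72. Atf3, a stress-induced bZIP gene, had at most 1 UMI in any choroid plexus class, and its level reached 30.6 (22.9 to 40.0) CPM in unclassified T cells of aged meninges, 30.5-fold (5.25 to 1228) that of aged choroid plexus on 53 and 1 UMIs.

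**Figure D2:**
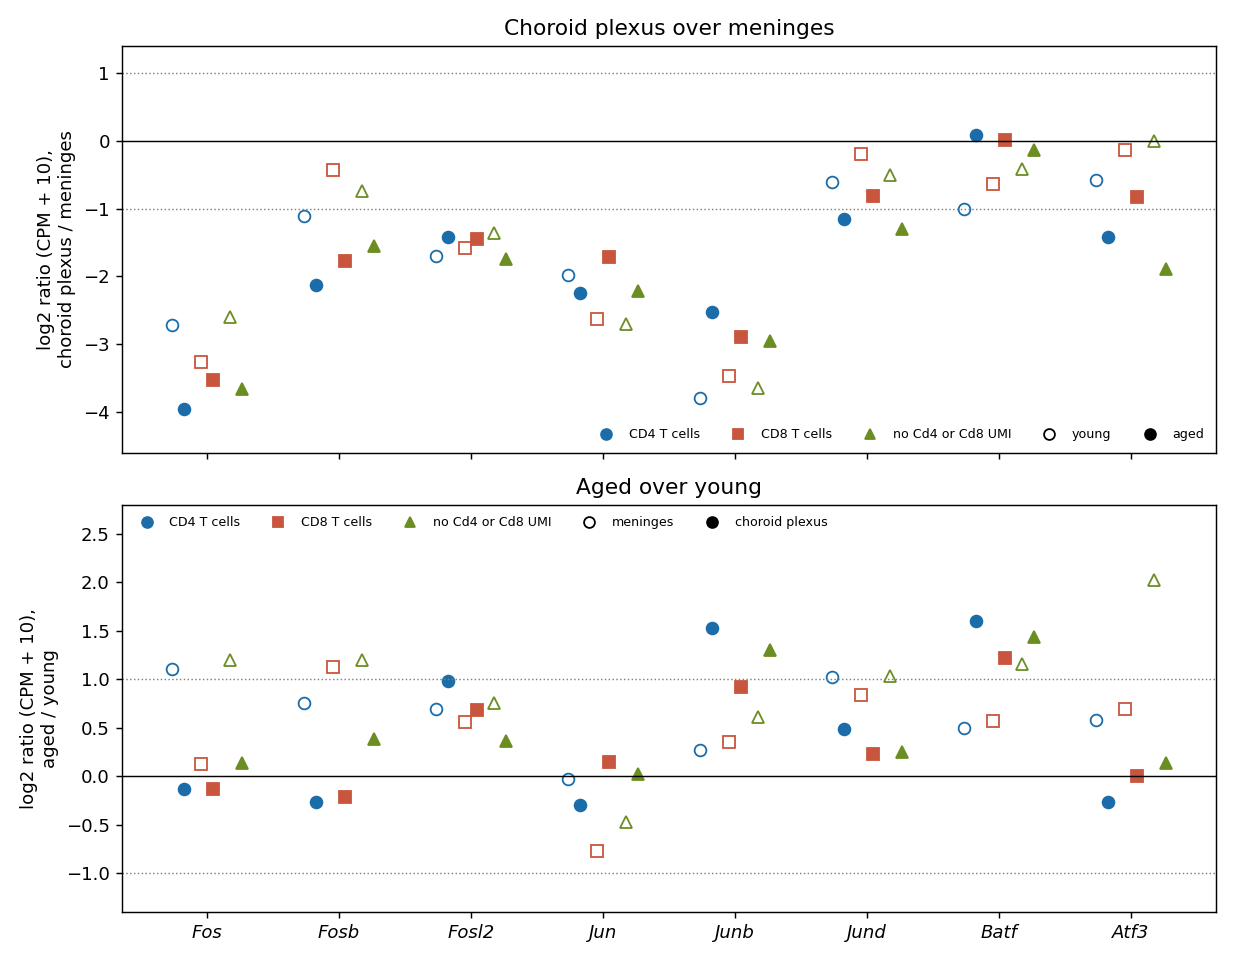
Log2 ratios of each member on the CPM + 10 scale, choroid plexus over meninges (upper panel, open for young and filled for aged mice) and aged over young (lower panel, open for meninges and filled for choroid plexus), with 1 symbol for each class and dotted lines at the rule of size. Fos, Fosl2, Jun and Junb lie at or below -1.35 in every tissue comparison, and in the age comparisons Junb and Batf lie above 0 in all 6.

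The libraries differed in their share of naive-like cells, so the tissue comparison was repeated within cells that had a Ccr7 UMI and within cells that had none. Ccr7, a homing receptor of naive and central memory T cells, was detected in 146 of 254, 35 of 362, 100 of 160 and 26 of 230 CD4 T cells of young meninges, aged meninges, young choroid plexus and aged choroid plexus. Among young CD4 T cells the log2 ratio of Junb between the tissues was -3.93 with Ccr7 and -3.56 without. Among aged CD4 T cells without Ccr7 it was -2.43 for Junb, -3.93 for Fos and -2.40 for Jun. In aged CD8 T cells without Ccr7 the ratio was -2.93 for Junb, -3.60 for Fos and -1.54 for Jun. The tissue difference of Junb, Fos and Jun was thus present in both states, except that Jun in young CD4 T cells without Ccr7 was at -0.60, with the same 1 cell holding 9 of 12 UMIs in choroid plexus. For Batf in aged CD4 T cells without Ccr7 the ratio was 0.17. In aged CD8 T cells with Ccr7 Batf was higher in choroid plexus past the rule, at 1.16. That ratio rests on 20 UMIs in choroid plexus and 4 in meninges. The meningeal over choroid plexus fold was 0.386, with an interval from 0.0959 to 1.15 that held 1. In young cells without Ccr7 Batf was at -1.41 in CD4, -1.19 in CD8 and -0.47 in unclassified T cells. Its meningeal level there was higher by 3.03-fold (1.43 to 7.38), 2.58-fold (1.38 to 5.13) and 1.46-fold (0.848 to 2.59). In these CD4 T cells 1 meningeal cell held 23 of 52 UMIs, and without it the levels were 77.7 CPM in meninges and 44.7 CPM in choroid plexus. Batf thus followed the tissue in young CD8 T cells without Ccr7.

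Other transcripts moved with the tissue. Haemoglobin genes, markers of red blood cells, summed to between 13.2 and 483 CPM in meningeal classes and between 0 and 4.03 CPM in choroid plexus classes. Summed macrophage markers lay between 89.1 and 483 CPM in meninges and between 96.1 and 485 CPM in choroid plexus, with Adgre1 at 0 in every library and class. In young meningeal CD4 T cells and in CD8 T cells of young and aged choroid plexus 6 of the 7 markers were at 0. The sum there was Cst3 alone and is not read as macrophage RNA. Fibroblast markers did not exceed 1.15 CPM anywhere, and 3 of 5 markers of choroid plexus epithelium or more were at 0 in every class other than young choroid plexus CD8 T cells, which reached 177 CPM with Kl and Folr1 at 0. B cell markers summed to between 65.2 and 264 CPM and had a UMI in 14.6% to 51.2% of the cells of a class. The comparison was repeated in cells with no UMI of B cell markers or of the other cell types above. Among them the log2 ratio between the tissues was between -4.28 and -2.76 for Junb over the 6 comparisons. For Fos it was between -4.45 and -2.62. The study's methods describe the same enzymatic digestion for both tissues, and state its duration and that of antibody staining. The times taken by dissection and sorting are not given in the sources used here. The part of dissociation in the levels was not tested.

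The share of cells with a UMI was also lower in choroid plexus for Fos, Junb and Jund. After every cell was thinned to 1000 UMIs, Junb was detected in CD4 T cells at a share of 67.6% (61.4 to 73.3) in young meninges, 64.3% (59.1 to 69.3) in aged meninges, 8.81% (4.90 to 14.3) in young choroid plexus and 27.5% (21.8 to 33.8) in aged choroid plexus, with exact Clopper-Pearson intervals. Without thinning the Junb shares were 85.8%, 77.1%, 23.1% and 50.4% in the same order. Between the ages in meninges these shares ran against the Junb level, and no order is read from them. The share of CD4 T cells with Fos was 13.0% (9.15 to 17.8) in young meninges, 18.8% (14.9 to 23.3) in aged meninges, 1.26% (0.153 to 4.47) in young choroid plexus and 2.18% (0.713 to 5.02) in aged choroid plexus, and unthinned it was 27.2%, 32.9%, 3.12% and 3.48%. Fos was therefore found in a minority of cells even where its level was highest, and the tenth of meningeal CD4 T cells with most Fos UMIs held 67.1% of them in young and 66.7% in aged mice. For Jund the thinned share in CD4 T cells was 35.6% (29.7 to 41.8) in young meninges, 58.1% (52.8 to 63.3) in aged meninges, 24.5% (18.1 to 32.0) in young choroid plexus and 34.1% (27.9 to 40.6) in aged choroid plexus, and unthinned it was 70.5%, 80.4%, 56.2% and 67.4%. For Batf in CD4 T cells it was 7.11% (4.27 to 11.01) in young meninges, 12.1% (8.88 to 15.9) in aged meninges, 3.14% (1.03 to 7.19) in young choroid plexus and 10.5% (6.83 to 15.2) in aged choroid plexus, and unthinned it was 16.5%, 27.1%, 10.6% and 29.6%. The libraries held no cell type known to lack these genes, so no share from free RNA could be set beside these values.

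Counting members per thinned T cell, 21.5% of T cells in young meninges, 15.5% in aged meninges, 65.1% in young choroid plexus and 52.6% in aged choroid plexus had a UMI of none of the 8. The mean number of members per cell was 1.32, 1.68, 0.416 and 0.630 in that order. At least 5 members were found in 14 of 1370 cells in aged meninges and in 1 of 999 in young meninges, and in 0 of 599 and 0 of 1073 cells in young and aged choroid plexus, for which the exact interval allows shares of up to 0.614% and 0.343%.

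**Figure D3:**
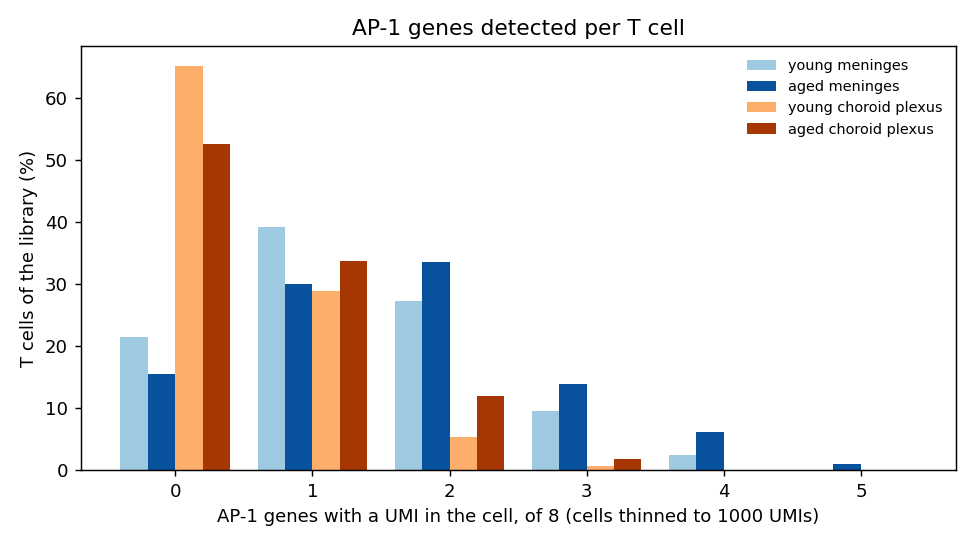
Share of the T cells of each library (vertical axis, percent, from 0) by the number of the 8 members with a UMI in the cell after thinning to 1000 UMIs (horizontal axis), with 1 bar for each library. Cells with none were 65.1% and 52.6% in the choroid plexus libraries against 21.5% and 15.5% in the meningeal ones. Cells with both Cd4 and Cd8 UMIs are included, and cells under 1000 UMIs are not.

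The second question of the design was how the members differed between aged and young mice within each tissue. Each library entered both an age and a tissue comparison, so these are not independent. Junb and Batf were higher in aged mice in all 6 comparisons with counting intervals above 1, and Jund in 5, with the sixth ending at a lower bound of 0.996. Such intervals narrow as UMIs rise. For counts of them, here and below, no share of all genes is given, so they are not read as particular to the members. In cells without markers of other cell types the log2 ratio of Junb in meningeal CD8 T cells turned from 0.35 to -0.28, and that of Fos there from 0.13 to -0.85. The summed level of the red blood cell markers in that class was 13.2 CPM in the young library and 452 CPM in the aged one. These markers had a UMI in 5.51% of the young and 23.5% of the aged cells. B cell markers, also used to leave out cells, had a UMI in 51.2% of the young and 14.6% of the aged cells. Unlike shares of cells were thus left out at the 2 ages, and the part of either marker set in the age values was not tested. With at most 3% mitochondrial UMIs the log2 ratio of Jund in choroid plexus was 0.11, -0.04 and 0.00 in CD4, CD8 and unclassified T cells, where it had been 0.49, 0.22 and 0.25. Jun was not higher beyond its counting interval in any comparison. In meninges 2 of the 8 members were higher past the rule of size in CD4 T cells (Fos and Jund, against 4.23% of all genes), 1 in CD8 T cells (Fosb, against 3.2%) and 5 in unclassified T cells (Fos, Fosb, Jund, Batf and Atf3, against 3.44%). In choroid plexus 2 were higher in CD4 T cells (Junb and Batf, against 7.27%), 1 in CD8 T cells (Batf, against 2.46%) and 2 in unclassified T cells (Junb and Batf, against 4.62%). In meninges 7, 7 and 8 members reached the minimum of 20 UMIs in CD4, CD8 and unclassified T cells, and in choroid plexus 4, 4 and 5. No member was lower past the rule, where the background in CD4, CD8 and unclassified T cells was 1.86%, 1.83% and 1.42% of genes in meninges and 1.92%, 0.872% and 1.83% in choroid plexus. With each cell thinned to 1000 UMIs before summing, Jun in meningeal CD8 T cells was lower past the rule, at -1.11. The median log2 ratio of the 8 members was 0.63, 0.56 and 1.10 in meningeal CD4, CD8 and unclassified T cells, beside 0.08, 0.04 and 0.05 for all genes at the minimum. In choroid plexus it was 0.18, 0.18 and 0.30, beside 0.16, 0.12 and 0.13, but there the members under the minimum have ratios pulled towards 0 by the 10 CPM added. Scaling without ribosomal protein, mitochondrial and receptor genes moved the medians of all genes to between -0.08 and 0.05.

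In meninges Fos was higher with age in CD4 and unclassified T cells, while in CD8 T cells its interval held 1, and the difference between the classes was not tested. The Fos level was higher in aged mice by 2.22-fold (1.83 to 2.72) in CD4 and 2.38-fold (2.05 to 2.77) in unclassified T cells, and the fold was 1.10 (0.860 to 1.41) in CD8 T cells. In choroid plexus Fos had between 3 and 20 UMIs in each class, and no difference was detectable at this depth. Fosb was higher in aged meninges by 2.13-fold (1.11 to 4.29) in CD4, 4.28-fold (1.68 to 12.9) in CD8 and 4.26-fold (2.13 to 9.43) in unclassified T cells. The CD8 difference of Fosb had a log2 ratio of 1.13, which was 0.91 with 16 UMIs without the cell that held most. Fosl2 was higher in aged meninges by 1.88-fold (1.08 to 3.38) in CD4 and 2.002-fold (1.31 to 3.11) in unclassified T cells, while in CD8 T cells its fold of 1.66 had an interval from 0.980 to 2.86, and no class passed the rule. Without the cell with most Fosl2 UMIs of each library its log2 ratio in CD4 T cells was 1.01.

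The Jun genes differed from each other with age. Jun was lower in aged meninges at 0.558-fold (0.418 to 0.739) in CD8 and 0.709-fold (0.607 to 0.829) in unclassified T cells, and in CD4 T cells its fold was 0.980 (0.787 to 1.22). In choroid plexus the log2 ratio of Jun was -0.30, 0.14 and 0.02 in CD4, CD8 and unclassified T cells, all with intervals that held 1, and the last changed sign under other scalings (-0.08 and -0.07). Junb was higher in aged choroid plexus by 3.04-fold (2.31 to 4.06) in CD4, 2.01-fold (1.47 to 2.795) in CD8 and 2.59-fold (2.07 to 3.26) in unclassified T cells. In meninges the age difference of Junb was 1.20-fold (1.13 to 1.28), 1.27-fold (1.17 to 1.39) and 1.53-fold (1.46 to 1.61), with intervals below those of choroid plexus in each class. Jund had the opposite distribution. It was higher in aged meninges by 2.06-fold (1.85 to 2.299), 1.80-fold (1.58 to 2.06) and 2.07-fold (1.91 to 2.25), and in aged choroid plexus by 1.41-fold (1.17 to 1.71), 1.17-fold (0.996 to 1.39) and 1.19-fold (1.03 to 1.38). The thinned share of meningeal CD4 T cells with Jund was 35.6% (29.7 to 41.8) in young and 58.1% (52.8 to 63.3) in aged mice, and unthinned 70.5% and 80.4%. With 1 library in each group, the difference between the tissues in these age effects has no replicate check.

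Batf was higher in aged choroid plexus by 3.54-fold (2.18 to 6.04) in CD4, 2.76-fold (1.73 to 4.65) in CD8 and 3.16-fold (2.11 to 4.85) in unclassified T cells, past the rule in each. In meninges it was higher by 1.46-fold (1.10 to 1.95), 1.57-fold (1.10 to 2.25) and 2.46-fold (1.90 to 3.204), and passed the rule in unclassified T cells. The CD8 difference in choroid plexus, at a log2 ratio of 1.22, was 0.54 in cells without markers of other cell types and 0.75 in cells with at most 3% mitochondrial UMIs. In that class summed gamma-delta T cell transcripts were 18.9 CPM in young and 181 CPM in aged mice. Atf3 had 0 UMIs in young and 53 in aged meningeal unclassified T cells, at least 15.4-fold higher against a floor of 3 UMIs. These UMIs lay in 2.04% of the aged cells, with up to 11 in a cell, and the thinned share was 1.83% (0.978 to 3.11). In the same comparison summed macrophage markers were 104 CPM in young and 170 CPM in aged mice, and in cells without markers of other cell types the log2 ratio of Atf3 was 1.97 against 2.02 in all cells.

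Naive-like markers also moved with age. Ccr7 and Lef1 together summed to 982 CPM in meningeal CD4 T cells of young mice against 134 CPM in those of aged mice, and to 964 against 121 CPM in choroid plexus. Over all classes their sum ranged from 582 to 1036 CPM in young and from 111 to 157 CPM in aged libraries. Macrophage markers summed to 89.1 and 483 CPM in young and aged meningeal CD4 T cells and to 129 and 485 CPM in those of choroid plexus. The young meningeal sum was Cst3 alone. The age comparison was therefore also made within cells without a Ccr7 UMI. There Jund had a log2 ratio of 0.92, 1.20 and 1.11 in meningeal CD4, CD8 and unclassified T cells. In choroid plexus the ratio of Jund was 0.27 in CD4 (1.21-fold, interval 0.935 to 1.59), 0.02 in CD8 and 0.03 in unclassified T cells (1.02-fold, interval 0.855 to 1.23), and all of its intervals there held 1. Junb in choroid plexus had 1.10, 1.08 and 1.11, and Batf in choroid plexus 1.60, 0.87 and 1.16. In choroid plexus CD8 T cells Batf thus no longer passed the rule, whereas Junb, at 0.92 in all cells, did. In meningeal CD4 and unclassified T cells the log2 ratios of Batf, Fos and Junb were lower in these cells than in all cells, and that of Junb in CD4 T cells turned to -0.03, while in CD8 T cells Fos was at 0.25 and Junb at 0.46, both above their values in all cells. Batf in meninges had a log2 ratio of 0.02 in CD4 (1.02-fold, interval 0.730 to 1.43) and -0.22 in CD8 T cells (0.843-fold, interval 0.568 to 1.27), where it had been 0.50 and 0.57 in all cells. In meningeal unclassified T cells Batf was at 0.77 (1.80-fold, interval 1.31 to 2.51). Among the young CD4 T cells 1 cell held 23 of the 52 Batf UMIs. Without that cell the young level was 77.7 CPM, beside 137 CPM in aged cells, so the CD4 ratio is not read as a lack of an age difference. Fos in meninges had 0.65 in CD4 and 0.83 in unclassified T cells, and Junb in meningeal CD4 T cells -0.03. Jun in meninges had 0.61 in CD4, -0.23 in CD8 and -0.01 in unclassified T cells, with counting intervals that held 1 in the last 2. In choroid plexus CD4 T cells without Ccr7 it had -1.18, where 1 cell held 9 of the 12 UMIs of the young library.

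Within meningeal CD4 T cells that did have Ccr7, 146 young and 35 aged cells, aged cells had more of Fos (4.47-fold, interval 3.06 to 6.504), Junb (1.75-fold, interval 1.53 to 2.005) and Jund (2.44-fold, interval 1.95 to 3.03). The Fos fold rests on 57 UMIs in the aged cells. Of all aged meningeal CD4 T cells 1 held 29 Fos UMIs, and whether it had Ccr7 is not given here. In meningeal unclassified T cells with Ccr7, 278 young and 70 aged, the Fos fold was 2.34 (1.66 to 3.27). In meningeal CD8 T cells with Ccr7 the fold was 0.752 for Fos, with an interval from 0.375 to 1.38, and Junb (1.22-fold, interval 1.01 to 1.46) and Jund (1.60-fold, interval 1.22 to 2.07) were higher in the 25 aged than in the 164 young cells. A cell that transcribes Ccr7 can lack a Ccr7 UMI, and the median T cell of aged meninges held the fewest UMIs.

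**Figure D4:**
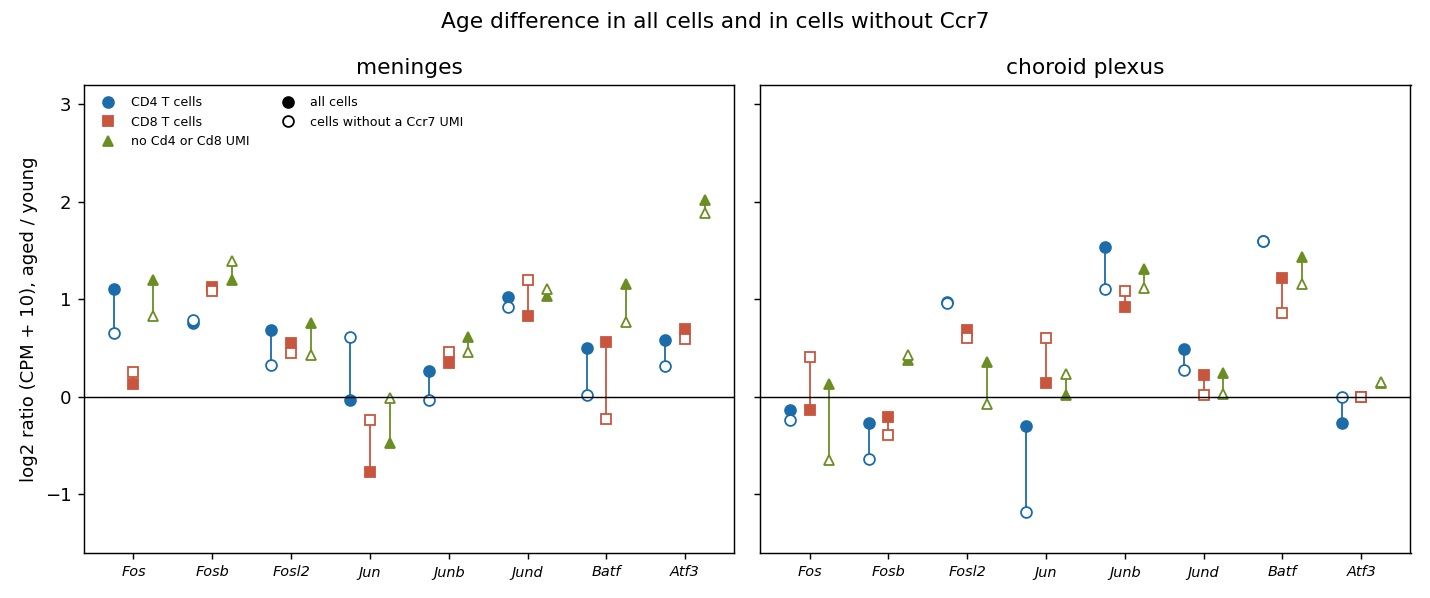
Log2 ratio of aged over young on the CPM + 10 scale (vertical axes) for each member in meninges (left) and choroid plexus (right), in all cells of a class (filled) and in its cells without a Ccr7 UMI (open), joined by a line. In meninges the open symbols of Batf in CD4, CD8 and unclassified T cells lie at 0.02, -0.22 and 0.77, whereas those of Jund stay at or above 0.92. For the CD4 symbol of Batf, 1 young cell held 23 of the 52 young UMIs.

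Within the young meningeal library, where both states were prepared together, Jun and Batf lay on opposite sides of the Ccr7 split. Of the 7 library and class profiles with at least 50 Ccr7 cells, Jun was lower without Ccr7 beyond its counting interval in 4 and higher in 1, and Batf was higher in 3 and lower in 0. Each profile with Jun lower or Batf higher was meningeal. All 7 profiles were from young mice except the unclassified T cells of aged meninges. In young meningeal CD4 T cells Jun was at 235 CPM (195 to 282) with Ccr7 and 107 (76.5 to 145) without. In the same cells Batf was at 57.8 CPM (38.7 to 83.0) with Ccr7 and 135 (101 to 177) without, where 1 cell without Ccr7 held 23 UMIs, and without that cell the second level was 77.7 CPM and the fold of 1.35 had an interval from 0.776 to 2.33. In young meningeal CD8 T cells Batf was at 24.7 CPM (14.4 to 39.5) with Ccr7 and 112 (80.1 to 151) without, and Jun at 179.8 CPM (149.6 to 214) with Ccr7 and 89.8 (61.8 to 126) without. Fos and Junb were each higher without Ccr7 in 4 of the 7 profiles, and Jund higher in 3 and lower in 1. In young meningeal CD4 T cells Fos was at 124 CPM (94.7 to 158) with Ccr7 and 211 (167 to 262) without. The 1 profile with Jun higher without Ccr7 was that of young choroid plexus CD4 T cells, in which 1 cell held 9 of its 12 UMIs. Leaving out the cell with most UMIs of the gene in each profile, an alternative chosen after seeing the data, left Jun lower without Ccr7 in 4 and higher in 0 profiles, Batf higher in 2, Fos higher in 2, Junb higher in 4, and Jund higher in 2 and lower in 1. In young choroid plexus the Jun fold, without over with Ccr7, was then 0.775 in CD4, 0.567 in CD8 and 1.02 in unclassified T cells. Each of these intervals held 1.

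Between the classes, members were mostly lower in CD8 than in CD4 T cells of the same library. Junb was lower beyond its counting interval in all 4 libraries, by 2.04-fold (1.89 to 2.21) in young meninges, 1.92-fold (1.79 to 2.07) in aged meninges, 1.70-fold (1.15 to 2.53) in young choroid plexus and 2.58-fold (2.17 to 3.06) in aged choroid plexus. It passed the rule in young meninges, where 1 member of 8 did so against 1.76% of all genes, and in aged choroid plexus, where 1 did so against 2%. In aged meninges Fos, at 2.48-fold (2.02 to 3.05), and Jun, at 2.12-fold (1.61 to 2.82), were lower past the rule, 2 members against 3.43%. In young choroid plexus 0 members passed it against 1.44%. Batf was lower in CD8 T cells with an interval above 1 in 3 of the 4 libraries, by 1.55-fold (1.16 to 2.07) in aged meninges and 1.64-fold (1.26 to 2.12) in aged choroid plexus. Fosl2 did not differ by class beyond its interval in any library, and in aged meninges its CD4 over CD8 fold was 1.04 (0.654 to 1.66). The Junb level of unclassified T cells lay nearer to that of CD4 than of CD8 T cells in all 4 libraries, and what share of them were CD4 T cells without a Cd4 UMI was not tested.

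Among the members themselves, levels over the 12 library and class profiles were most alike for Fos with Junb (Pearson r of 0.95) and Fos with Jun (0.95), followed by Fosl2 with Junb (0.93) and Jun with Junb (0.93). Batf was the member least like each of the others except Jund, which was least like Jun, and its values ran from 0.26 with Jun to 0.70 with Jund. The 12 profiles come from 4 libraries and share them, so these correlations are descriptions. Pairs of members in single cells were read in all thinned T cells of a library, including cells with both Cd4 and Cd8 UMIs. In thinned cells of aged meninges, Junb had a UMI in 82.2% of cells with Fos against 60.6% of cells without Fos, and Jun in 17.4% of cells with Fos against 10.3% of cells without Fos. In young meninges Junb was found in 73.8% of cells with Fos against 59.7% of cells without Fos. In aged choroid plexus Batf was found in 17.3% of cells with Junb against 7.12% of cells without Junb, and in aged meninges in 13.1% of cells with Junb against 9.55% of cells without Junb. Shared detection was thus above the product of the separate shares for Fos with Jun and with Junb in both meningeal libraries, and cells of a library share their source and differ in quality.

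For each member, the 3 genes with the most similar pattern over the 12 profiles were taken from 5114 candidates by Pearson correlation on the log2(CPM + 10) scale. They were Dusp1, a phosphatase that inactivates MAP kinases, Dnajb1, a heat shock co-chaperone, and Zfp36, which destabilizes AU-rich transcripts, for Fos (r of 0.99, 0.98 and 0.97). For Junb they were Nr4a1, Tnfaip3 and Nfkbia (0.99, 0.98 and 0.98), for Jun Pnrc1, Ppp1r15a and Tgif1 (0.99, 0.98 and 0.98), and for Fosl2 Dusp2, Nr4a3 and Tnfaip3 (0.97, 0.96 and 0.95). For Fosb they were Klf10, Irf7 and Dusp1 (0.95, 0.93 and 0.93). The genes nearest to Jund were P2ry10, Rgs2 and B3gnt2 (0.94 for each), to Batf Rnh1, Aurkaip1 and Acot7 (0.97 for each), and to Atf3 Hilpda, Sft2d1 and Cebpb (0.88, 0.87 and 0.86). No gene on the list of Jund, Batf or Atf3 was on that of another member, whereas Dusp1 and Tnfaip3 each stood on 2 lists.

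The other genes of the pathway were read from 7 lists of 115 genes, and members were left out of them. Between the tissues, the other immediate-early genes were lower in choroid plexus past the rule for 10 of 13 measured genes in young CD4, 10 of 13 in young CD8 and 10 of 14 in young unclassified T cells. In aged mice the counts were 10 of 15, 9 of 14 and 11 of 16, and none was higher. Gadd45b, a stress-induced regulator of p38 signalling, was at 144, 405, 8.05 and 54.0 CPM in CD4 T cells of young meninges, aged meninges, young choroid plexus and aged choroid plexus. Tnfaip3, which restrains NF-kB signalling, was at 161, 273, 16.1 and 51.3 CPM, and Nfkbia, the inhibitor of NF-kB, at 758, 978, 171 and 407 CPM in the same cells. Both meningeal values were above both choroid plexus values for each of these genes. Socs3, a feedback inhibitor of cytokine receptors, was at 47.4, 72.1, 30.2 and 58.2 CPM and passed the tissue rule in 1 of 6 comparisons.

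Of the 15 genes that restrain MAP kinases or AP-1 products, between 3 and 6 of 8 to 12 measured genes were lower in choroid plexus past the rule in each comparison, and none was higher. Dusp1 was at 257, 710, 26.2 and 47.1 CPM in CD4 T cells of the 4 libraries in the same order. It was lower past the rule in all 6 comparisons, as were Dusp5 and Zfp36. Zfp36l1, a relative of Zfp36, was at 160, 236, 96.6 and 155 CPM and Dusp2, an activation-induced phosphatase, at 122, 144, 58.4 and 79.0 CPM, and each passed in 1 of 6. Pdcd4, an inhibitor of translation that also restrains AP-1 activity, was at 377, 314, 449 and 292 CPM and passed in none. By contrast, the kinases, adaptors and activators upstream of AP-1 had at most 1 of 15 to 22 measured genes lower past the rule, and the median log2 ratio of the list lay between -0.22 and 0.08. Malt1, part of the complex that links the T cell receptor to NF-kB and JNK, was at 44.0, 83.0, 36.2 and 77.6 CPM in CD4 T cells. Rasgrp1, which activates Ras below the receptor, was at 169, 119, 211 and 127 CPM. Mapk3, which encodes the kinase ERK1, was at 15.8, 36.5, 34.2 and 34.6 CPM, and Elk3, a ternary complex factor, at 25.9, 62.2, 24.2 and 33.2 CPM. None of these 4 genes passed the tissue rule in any comparison.

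Heat shock genes, which tissue handling can also induce, were lower in choroid plexus past the rule for between 1 and 4 of 10 or 11 measured genes. Dnajb1 passed in all 6 comparisons and was at 167, 244, 74.5 and 67.9 CPM in CD4 T cells, while Hspe1, a mitochondrial chaperone, was at 245, 219, 229 and 288 CPM and passed in none. Hspa5, a chaperone of the endoplasmic reticulum, was at 186, 199.5, 107 and 144 CPM, and Hsp90aa1 at 305, 363, 221 and 227 CPM. Neither passed in any tissue comparison. These 4 genes were picked by their age ratios. Hspa1a and Hspa1b were also lower in choroid plexus past the rule in young CD4, aged CD4 and aged unclassified T cells. Hspa1b was so in aged CD8 T cells as well, and Hsph1 in aged CD4 T cells. Dnajb1 was thus lower wherever Fos and Junb were, and the part of tissue handling in either was not tested. With age at most 1 heat shock gene was higher past the rule in a comparison and none was lower.

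With age the lists stood differently. Over all genes at the minimum, between 2.46% and 7.27% were higher past the rule with age and between 0.872% and 1.92% lower. The lack of lower genes in a list, and counts of 0 to 2 higher genes, are therefore not read as particular to it. The upstream list had at most 1 gene higher past the rule in a comparison and none lower, with medians between -0.09 and 0.19. The list of other immediate-early genes had between 2 and 4 of 11 to 16 measured genes higher and none lower, and Gadd45b passed in all 6. Restraints had between 0 and 2 higher and none lower, with Dusp1 past the rule in all 3 meningeal comparisons and in none of choroid plexus. Nuclear partners of AP-1 had between 0 and 2 higher. Among them Nfatc1, the inducible NFAT gene, was at 55.3, 83.0, 34.2 and 85.9 CPM in CD4 T cells, and Nfkb1 at 37.2, 79.0, 40.3 and 70.6 CPM, with both aged values above both young values. Ets1, which represses some effector genes, was at 485, 375, 487 and 323 CPM, and Runx3, a regulator of cytotoxic T cells, at 67.7, 94.8, 78.5 and 74.8 CPM.

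Other bZIP genes had between 1 and 3 of 8 to 15 measured members higher and at most 1 lower with age. Maf, which drives Il10 and other cytokine genes, was higher past the rule in all 6 comparisons, at 50.8, 264, 36.2 and 222 CPM in CD4 T cells. Bach2, which competes with AP-1 at effector genes and keeps T cells quiescent, was at 41.7, 24.7, 44.3 and 18.01 CPM in CD4 T cells, with both aged values below both young values, and was lower past the rule in 2 of the other comparisons. Crem was at 32.7, 72.1, 16.1 and 42.9 CPM and Nfe2l2 at 80.1, 32.6, 48.3 and 36.0 CPM. T-cell genes with known AP-1 sites in their regulatory regions had between 2 and 5 of 7 to 10 measured genes higher with age and none lower, and between 0 and 4 lower in choroid plexus. Vim, an intermediate filament gene, was at 608, 1301, 459 and 1031 CPM in CD4 T cells, Tnf at 59.8, 122, 16.1 and 66.5 CPM and Il2 at 14.7, 45.4, 12.1 and 34.6 CPM. Both aged values were above both young values for Vim, Tnf and Il2. Cd40lg, the CD40 ligand of helper T cells, was at 203, 244, 185 and 222 CPM. The age rule named these genes, so their age order is a description.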

How the data were processed

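Unique molecular identifier (UMI) counts per gene and cell barcode were used as the authors deposited them, as 1 matrix for each of the 4 libraries. The file headers name Cell Ranger 3.1.0, whereas the submitters' processing notes name Cell Ranger 5.1.0, STAR and mm10, and the annotation used is not given in the sources used here. Cells with 200 to 7000 genes and at most 5% mitochondrial UMIs were kept, as in the study's methods. Doublets were marked with Scrublet in scanpy 1.11.5 (seed 0), where the study used DoubletFinder. It marked 16 cells in young meninges, 0 in aged meninges, 22 in young choroid plexus and 5 in aged choroid plexus, so doublets can remain, most of all in aged meninges. T cells and classes were set by UMIs of Cd3, Cd4 and Cd8 genes. Cells with both Cd4 and Cd8 UMIs were left out of the classes but kept in the counts of members and of pairs per cell. Counts were summed by class and library, scaled to CPM, and compared after 10 CPM had been added. Shares of cells were taken after thinning to 1000 UMIs, and cells with fewer UMIs were left out of them. Scripts used Python 3.11.15, numpy 2.4.6, pandas 2.3.3, scipy 1.17.1 and anndata 0.12.19, figures used matplotlib 3.10.9, and the comparison was tested on simulated data. With 1 library in each group no test between groups was made. Every member was named. From each list the 4 genes with the largest absolute mean log2 ratio over the 6 age comparisons were named, among genes with at least 20 UMIs in all 6, and for each member the 3 genes with the most similar profile. Dusp5, Zfp36, Hspa1a, Hspa1b and Hsph1 were named as well, from their tissue comparisons. The members and the lists were chosen with earlier results of these data known.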

Additional observations from a re-analysis of the deposited data

Results flagged for a closer look

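In 5 cases the aged over young difference of a member had opposite signs in the 2 tissues, each of which is 1 library per age, and the difference between the tissues was not tested. In CD4 T cells the log2 ratio was 1.10 in meninges and -0.13 in choroid plexus for Fos, and 0.76 and -0.26 for Fosb. In CD8 T cells it was 1.13 in meninges and -0.21 in choroid plexus for Fosb, and -0.77 and 0.14 for Jun. In unclassified T cells it was -0.47 in meninges and 0.02 in choroid plexus for Jun. The choroid plexus values rest on few molecules, with 8 and 10 UMIs of Fos in young and aged CD4 T cells and 1 and 0 of Fosb, and thinning each cell to 1000 UMIs before summing gave 0.50 for Fos there. Fosb in choroid plexus CD8 T cells rests on 1 and 0 UMIs and had a log2 ratio of 0 without the top cell, and Jun there was at -0.06 with no filter on cells. The Jun value in unclassified T cells of choroid plexus was -0.08 and -0.07 under the other scalings.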

How the results depend on the processing

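The reported age counts hold only members that were higher with age, while the alternatives count both directions. No log2 ratio that passed the rule of size changed sign under any alternative. Of the counts of members past the rule, 68 of 90 for age and 79 of 90 for tissue stayed within 1.5 times the reported count. The reported age counts were 2, 1 and 5 in meningeal CD4, CD8 and unclassified T cells and 2, 1 and 2 in choroid plexus. A pseudocount of 50 CPM gave 0, 0 and 1 in meninges and 0 and 1 in choroid plexus CD8 and unclassified T cells. It gave tissue counts of 3 in young CD4, 2 in aged CD8 and 4 in aged unclassified T cells, where 5, 5 and 7 were reported. A limit of 3% mitochondrial UMIs gave 1 in meningeal CD4 and 0 in both CD8 age comparisons, and 3 in the young CD4 tissue comparison. Thinning before summing gave age counts of 1 in meningeal CD4 and 2 in both CD8 comparisons, of which 1 in meninges, Jun, was lower with age at -1.11, and a tissue count of 2 in aged CD8 T cells. CPM without ribosomal, mitochondrial and receptor genes, median-of-ratios scaling, and a class call from 2 UMIs each gave 1 in meningeal CD4 T cells, and the last also gave 3 of 6 in the aged CD4 tissue comparison. A minimum of 50 UMIs gave 0 in meningeal CD8 T cells with age and 3 in aged CD8 T cells between tissues. A log2 threshold of 0.5 gave 4 and 5 in meningeal CD4 and CD8, of which Jun in CD8 T cells was lower, and 2 in choroid plexus CD8 T cells. Cells without Ccr7 gave 0 in meningeal CD4 and 3 in unclassified T cells with age, and 1 in choroid plexus CD8 T cells that was Junb in place of Batf, and 3 in young CD4 T cells between tissues. Cells without markers of other cell types gave 0 in meningeal CD8 T cells with age, and tissue counts of 3 in young CD4 and 3 in aged CD8 T cells. Leaving out the cell with most UMIs of each gene gave 0 in meningeal CD8 T cells with age and 3 in young CD4 T cells between tissues. For all of these the cause was not tested. The tissue alternatives and the alternative without the top cell were chosen after seeing the data. Members with under 20 UMIs, mostly Fosb and Atf3 in choroid plexus, could not be compared at this depth. No paired analysis was possible because each group is 1 library, and for the same reason no replicate could be left out.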
